A study of Mus musculus with 48 samples.

Results

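The comparison described here asked what a stress environment did to gene expression in the frontal cortex of mice that were all given esomeprazole, a proton pump inhibitor that blocks acid secretion by the stomach. It rests on 12 of the 48 libraries of the study, chosen by their labels: 6 from stressed and 6 from non-stressed mice. All 12 mice were male C57BL/6 animals, an inbred laboratory strain, between postnatal days 63 and 91. Both groups received esomeprazole by injection into the abdominal cavity, 60 minutes after each session in a stress or a control environment, on 3 days. The brain was collected 12 hours after the final injection. The non-stressed group is therefore a control for stress and not for the drug. The labels disagree on the dose, which is 2 mg/kg in the design text and the drug label but 2 g/kg in the protocol for treatment, and what the stress environment consisted of is not given in the labels used here. Poly(A) RNA was sequenced as read pairs. The labels give separate mice for the libraries of a group, and 12 further frontal cortex libraries, from stressed and non-stressed vehicle mice, entered the same model.

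Stress makes the adrenal cortex release glucocorticoids, steroid hormones that bind the glucocorticoid receptor (Nr3c1) and the mineralocorticoid receptor (Nr3c2) in neurons, glia and blood vessels of the brain. The bound receptor enters the nucleus and switches on genes such as Fkbp5, Sgk1 and Tsc22d3, several of which damp the hormone signal or inflammation. Glucocorticoid levels also follow the time of day and act on clock genes, and neuronal activity switches on immediate early genes such as Fos and Egr1 within minutes, for a short time.

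Reads assigned to genes ran from 27.6 to 41.2 M per library, and the stressed group held 1.99 M more on average (two-sided exact permutation test, p = 0.416). The share of reads assigned to no annotated feature ran from 7.75% to 19.5%, with stressed libraries lower by 1.22 points on average (exact permutation p = 0.639). It was under 12% in non-stressed libraries 2 and 3 and in stressed libraries 3 and 4, and stressed library 2 lay between these and the rest at 14.05%. The first principal component, with 78.9% of the variance over the 12 libraries, ordered them much as this share did. The libraries went with their tissue label in part. Cux2, a transcription factor gene of upper cortical layers, lay from 2419 to 5322 normalised reads on a scale common to both tissues, above the 672 to 1164 of non-stressed esomeprazole hippocampus, though stressed esomeprazole hippocampus reached 3187. Fezf2, a gene of deep-layer neurons, went the other way, with medians of 436 and 599 in the non-stressed and stressed cortex and 1012 in non-stressed hippocampus, and Rorb and Slc17a7, also genes of cortical excitatory neurons, overlapped between the tissues. Prox1, a gene of dentate granule neurons, lay from 57.1 to 168 in cortex and from 884 to 2961 in non-stressed hippocampus. Eomes, a transcription factor gene of olfactory bulb projection neurons, lay from 1412 to 3784 in 10 libraries and at 47.7 and 24.6 in non-stressed library 3 and stressed library 5. Cdhr1, another bulb marker, lay from 6691 to 25752.5 in the same 10 libraries and at 841 and 241 in those 2. Every other bulb marker tested, apart from Slc17a6 and Slc6a7, was also higher in each of the 10 than in those 2. Of the 17 olfactory bulb markers tested, 10 were higher and 7 lower in stressed mice, at a median of 0.01 (log2 fold change), a balance over all 12 libraries for which the comparison was also chosen. It did not hold within classes of no-feature share, since the library low in bulb markers was under 12% in the non-stressed group and above it in the stressed group. The bulb score differed by -1.03 from 12% up and by 2.06 under 12%, and without the libraries under 12% the median of the markers was -1.09. Each value given below for a class of no-feature share, or without the libraries under 12%, therefore also sets unequal levels of bulb markers against each other, and their part in it was not tested. Whether the 10 libraries high in Eomes held olfactory bulb tissue was not tested. In whole tissue, fewer cells of a type and less RNA per cell cannot be told apart.

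**Figure D1:**
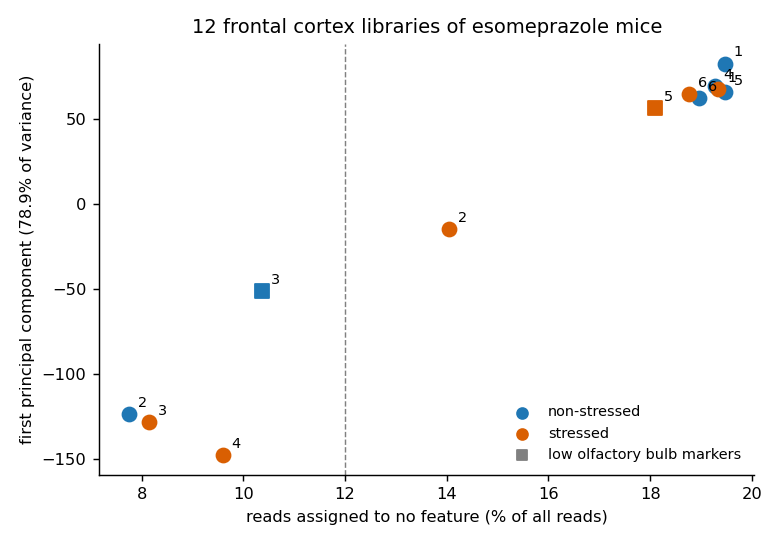
Share of reads assigned to no feature (horizontal axis, % of all reads) against the first principal component of the log2 values (vertical axis) in the 12 libraries, numbered by replicate. Squares mark non-stressed library 3 and stressed library 5, low in olfactory bulb markers, and the dashed line marks 12%. The 4 libraries under 12% and stressed library 2 lie below 0 on the component and the other 7 above it.

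Across 15040 genes tested, no gene was called by limma at a Benjamini-Hochberg adjusted p under 0.05 (0% called, smallest adjusted p = 0.999901). An unadjusted p under 0.05 was reached by 32 genes lower in stressed mice (0.213%) and 39 higher (0.259%). Together these were 0.472% of genes, below the fraction of 0.05 that this threshold gives on average where nothing differs. The p-values were thus larger than such a test should give, for a cause that was not tested. An adjusted p of 0.999901 is therefore not evidence that no gene differed. Counts at an unadjusted p in the other fits below do not rank those fits by the size of an effect. Of all genes 49.6% were lower, the median log2 fold change was 0.0020, and the central 90% of genes lay between -0.77 and 0.26. The values below are therefore descriptions of differences that did not pass over all genes, and the genes named are those with the smallest p in each direction and the members of lists. The 2 groups of 6 libraries did not overlap for 5 genes (0.0332%): Tcea3, Gucy2e and Card6 were higher and Galnt15 and Hif3a lower in every stressed library. Those 5 were singled out after their values were seen. With 2 surrogate variables in the model, limma called 4 genes lower, Tsc22d3, Map3k6, Slc2a1 and Sdc4, and DESeq2 on the recovered reads called Plin4 lower.

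Of the 12 lower genes of smallest p, 7 were on the list of glucocorticoid response genes: Plin4, Hif3a, Galnt15, Map3k6, Tsc22d3, Acer2 and Sult1a1. Earlier results of these data were known when the list was drawn up, so this is not independent evidence of its direction. Of 48 listed genes, all tested, 33 were lower and 15 higher in stressed mice, with a median log2 fold change of -0.17 against 0.0020 over all genes. Of these, 9 had an unadjusted p under 0.05, all lower, where 0.213% of all genes did, and none was called. A score per library, the members' deviations on the log2 scale averaged, lay from -0.042 to 0.62 in non-stressed libraries and from -0.29 to 0.20 in stressed ones. Non-stressed library 2, with the lowest no-feature share, had the highest score, and stressed libraries 3 and 4, also under 12%, had the highest of their group. The score difference was -0.27 among libraries from 12% up (4 against 4) and -0.24 under 12% (2 against 2). Without the libraries low in bulb markers the list median was -0.064, and without non-stressed library 2 alone it was -0.042.

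Plin4, the perilipin 4 gene of the lipid droplet coat (mm10, chromosome 17, 56100591 to 56109803, minus strand), lay from 141 to 799 normalised reads (median 527) in non-stressed libraries and from 103 to 224 (median 121) in stressed ones. The stressed libraries were low throughout, and the groups overlapped only through non-stressed library 4, whose 141 reads were below stressed libraries 3 and 4. Its log2 fold change, on the scale of log2(normalised reads + 1) as everywhere below, was -1.73 ± 0.43 (SE; limma, unadjusted p = 0.000524). Hif3a, a hypoxia-inducible factor subunit gene (chromosome 7, 17031507 to 17062427, minus strand), lay from 502 to 1003 normalised reads (median 754) in non-stressed libraries and from 207 to 354 (median 309) in stressed ones. Its groups did not overlap, and the log2 fold change was -1.33 ± 0.36 (unadjusted p = 0.00132). For Galnt15, a gene of protein O-glycosylation (chromosome 14, 32028989 to 32062197, plus strand), values ran from 112 to 146 normalised reads (median 130.1) in non-stressed libraries and from 59.1 to 106 (median 74.0) in stressed ones. These groups did not overlap either, with the highest stressed library, number 4, just under the lowest non-stressed one, and a log2 fold change of -0.76 ± 0.21 (unadjusted p = 0.00124).

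**Figure D2:**
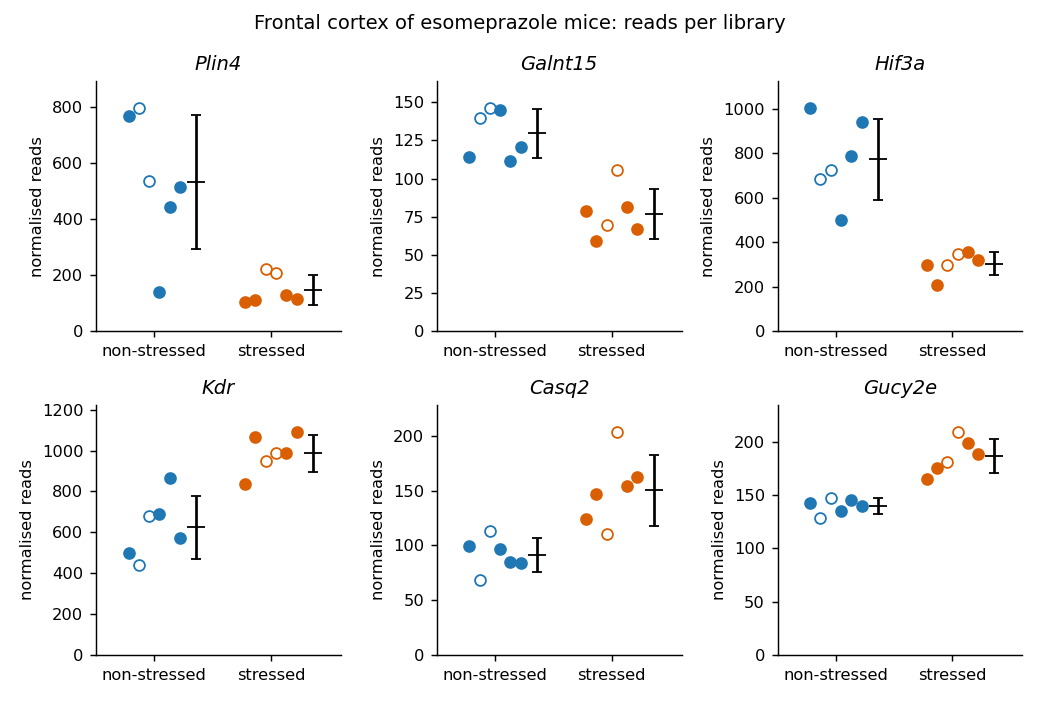
Normalised reads (vertical axes, from 0) of 6 genes in the 6 non-stressed and 6 stressed libraries. Each circle is 1 library, open circles are the 4 libraries with a no-feature share under 12%, and bars give mean and SD. Hif3a and Galnt15 are lower and Gucy2e higher in every stressed library, while the groups overlap for Plin4, Kdr and Casq2.

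Map3k6, a stress-activated kinase gene, lay from 163 to 378 normalised reads (median 229) in non-stressed libraries and from 78.4 to 219 (median 148) in stressed ones. Of the stressed libraries, 4 were below all non-stressed ones, and the log2 fold change was -0.82 ± 0.27. Tsc22d3, the glucocorticoid-induced leucine zipper, an anti-inflammatory mediator of the hormone, lay from 2083 to 4449.5 normalised reads (median 2649.7) in non-stressed libraries and from 1673 to 2632 (median 1991) in stressed ones. Again 4 stressed libraries were below all others, with non-stressed libraries 2 and 3, both of low no-feature share, the highest, and the log2 fold change was -0.54 ± 0.19. Acer2, a ceramidase gene, was at -0.58 ± 0.20, Sult1a1, a sulfotransferase gene, at -0.42 ± 0.16, Mertk, a receptor kinase gene of phagocytosis, at -0.71 ± 0.33 and Pla2g3, a secreted phospholipase gene, at -0.34 ± 0.15 (log2, SE). The Acer2 difference was -0.82 among libraries from 12% no-feature reads up and -0.087 under 12%.

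Other genes much used as readouts of the receptor differed less than Tsc22d3. Fkbp5, a co-chaperone gene that lowers the receptor's affinity for the hormone, lay from 1387 to 2689 normalised reads (median 1793) in non-stressed libraries and from 1100.3 to 2349 (median 1459.8) in stressed ones. Of the stressed libraries 3 were below all non-stressed ones and the others were within their range, and the log2 fold change was -0.34 ± 0.21 (unadjusted p = 0.11). Sgk1, a kinase gene that regulates ion channels, lay from 1609 to 2800.0 normalised reads (median 2663) in non-stressed libraries and from 1608 to 2429 (median 1846) in stressed ones. The groups overlapped in all but 1 stressed library, number 3, which was just under the non-stressed minimum. Its log2 fold change was -0.31 ± 0.17 (unadjusted p = 0.081), and -0.13 without the libraries under 12%. Per1, a clock gene that the receptor also induces, was at 0.0088 ± 0.28 and changed sign with the scaling. Among the members higher in stressed mice, Ptgds, a prostaglandin D synthase gene of meninges and choroid plexus, was at 0.50 ± 0.46, and Cdkn1a, a cell cycle inhibitor gene, at 0.26 ± 0.44. Other members far below 0 had wide errors: Lcn2, a secreted iron-scavenging protein gene of inflammation, was at -1.15 ± 0.93 and Nostrin, a trafficking regulator gene of nitric oxide synthase, at -0.79 ± 0.46.

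**Figure D3:**
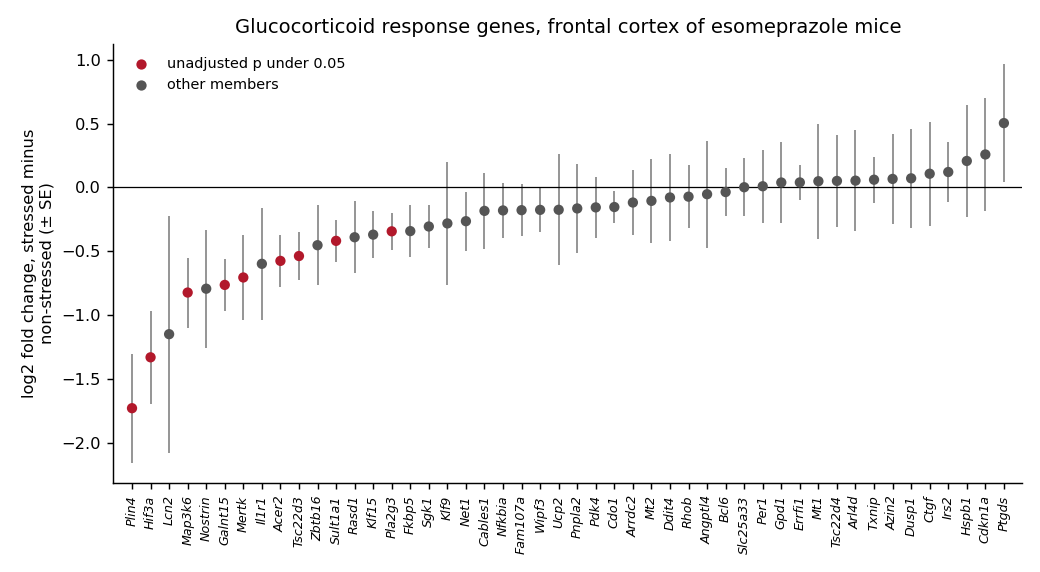
Log2 fold change, stressed minus non-stressed, with its standard error (vertical axis) for the 48 glucocorticoid response genes, ordered by value (horizontal axis). Red points are the 9 members with an unadjusted p under 0.05, all lower in stressed mice; grey points are the other members.

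The hormone receptor binds DNA as a pair, at a palindrome whose arms each hold a hexamer. RefSeq promoters on GRCm38.p6 (250 bases before to 50 after a start) were searched on both strands for AGAACA, then any 3 bases, then TGTTCT, and for the hexamer AGAACA alone. Of 11303 tested genes with a promoter, 1 held the palindrome (0.00885%), and it was Sgk1, while 14.9% held the hexamer. Among the glucocorticoid response genes 38 matched a promoter and 7 of these held the hexamer (18.4%), Sgk1, Tsc22d3 and Sult1a1 among them. A list member counted if any of its listed promoters held it. Plin4, Galnt15, Hif3a, Map3k6 and Acer2 held no match in this window, which says only that these letters are not in it. The promoters of Sgk1 (the fifth of 6 listed) and Tsc22d3 (the second of 3) are shown because they carry these letters. Promoters 1 and 3 of Tsc22d3 held no hexamer, and which start was in use here was not tested. Capitals mark hexamers, read on either strand, and in Sgk1 also an E-box, CACGTG, that overlaps the first of them; the palindrome is the pair of hexamers with 3 lower-case bases between.
Sgk1, chr10:21993640-21993939, plus strand: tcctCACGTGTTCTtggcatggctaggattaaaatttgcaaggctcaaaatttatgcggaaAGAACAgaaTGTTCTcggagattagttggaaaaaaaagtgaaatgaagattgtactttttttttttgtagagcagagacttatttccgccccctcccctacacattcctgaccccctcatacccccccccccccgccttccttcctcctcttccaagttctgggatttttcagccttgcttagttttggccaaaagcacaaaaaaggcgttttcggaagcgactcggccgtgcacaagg
Tsc22d3, chrX:140600473-140600772, minus strand: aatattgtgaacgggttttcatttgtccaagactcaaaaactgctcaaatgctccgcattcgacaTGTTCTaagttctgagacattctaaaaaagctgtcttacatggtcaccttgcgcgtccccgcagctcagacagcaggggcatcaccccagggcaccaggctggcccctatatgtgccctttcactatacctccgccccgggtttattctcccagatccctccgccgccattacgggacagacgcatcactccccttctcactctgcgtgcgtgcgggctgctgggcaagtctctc

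Receptors and co-chaperones of the hormone were mostly at or below 0. Of 14 tested genes 10 were lower and 4 higher, with a median of -0.19 and none at an unadjusted p under 0.05. Nr3c1, the glucocorticoid receptor gene, lay from 269 to 3084 normalised reads (median 2394) in non-stressed libraries and from 74.1 to 3380.2 (median 1686) in stressed ones. Its spread within groups was wide: non-stressed libraries 2 and 3 and stressed libraries 2, 3 and 4, the 5 of lowest no-feature share, were at 932 reads or lower, and the others at 2107 or higher. The log2 fold change of -0.88 ± 0.91 was -0.28 without the libraries under 12%. Nr3c2, the mineralocorticoid receptor gene, was at -0.012 ± 0.27, and Hsd11b1, whose enzyme regenerates active hormone in cells, at -0.26 ± 0.28. None of these had an unadjusted p under 0.05.

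Circadian clock genes were lower more often than higher, but their median depended on a few libraries. Of 24 genes 15 were lower and 9 higher, with a median of -0.11, and 1 had an unadjusted p under 0.05. The score differed by -0.53 under 12% (2 against 2) and by -0.059 from 12% up, and the bulb score differed by 2.06 in the former class too. The list median was -0.0014 without the libraries under 12% and -0.020 without the 2 low in bulb markers. Ciart, a repressor of the clock's activator pair (chromosome 3, 95878503 to 95882251, minus strand), lay from 399 to 1009.6 normalised reads (median 521) in non-stressed libraries and from 271 to 573 (median 356) in stressed ones. Of the stressed libraries 3 were below all non-stressed ones, while stressed library 5, at 573, was above 4 of them. The log2 fold change was -0.60 ± 0.22 (unadjusted p = 0.0127), or -0.32 from 12% up and -1.15 under it. Clock, a member of the activator pair, was at -1.09 ± 1.06. Per2, a core repressor of the clock, was at -0.47 ± 0.29, Nr1d2, a nuclear receptor of its second loop, at -1.04 ± 0.97, and Nfil3, a repressor of clock output genes, at 0.56 ± 0.43. Nr1d2 spread widely, from 338 to 5535 normalised reads in non-stressed and from 102 to 4078 in stressed libraries. Its log2 fold change was -0.59 without the libraries under 12%. E-boxes, the CACGTG site of the activator pair, stood in 11.3% of tested genes with a promoter and in 5 of 19 clock genes (26.3%): Per1, Cry1, Tef, Bhlhe41 and Ciart. The share was 23.7% (9 of 38) in glucocorticoid response genes and 23.8% (5 of 21) in immediate early genes. A list member counted if any of its promoters matched, so these are not shares of promoters. Sgk1, with 6 promoters listed, and Egr2, with 5, each matched in 1. The Ciart promoter is shown because it holds 3 E-boxes, in capitals.
Ciart, chr3:95882179-95882478, minus strand: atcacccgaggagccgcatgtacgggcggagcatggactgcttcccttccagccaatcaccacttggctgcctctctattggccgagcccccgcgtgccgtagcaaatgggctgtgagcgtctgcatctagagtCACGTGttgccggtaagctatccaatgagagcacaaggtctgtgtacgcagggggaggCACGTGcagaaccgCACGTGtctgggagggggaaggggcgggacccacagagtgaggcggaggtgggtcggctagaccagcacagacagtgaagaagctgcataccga

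Immediate early genes were higher in stressed mice as a list, with 22 of 26 higher and a median of 0.17, though 1 had an unadjusted p under 0.05. Egr1, a zinc finger transcription factor gene of recent neuronal activity, lay from 2855 to 6903 normalised reads (median 3497) in non-stressed libraries and from 3852 to 9614 (median 5605) in stressed ones. Non-stressed library 3, at 6903, stood above the other 5, which ended at 3735, and all stressed libraries were above 3735. The log2 fold change was 0.67 ± 0.28 (unadjusted p = 0.0256). Fos, the classical marker of activity, lay from 204 to 376 normalised reads (median 282) in non-stressed libraries and from 231 to 1406 (median 511) in stressed ones. Stressed libraries 1, 2 and 4 were at 737, 1406 and 948, above all non-stressed ones, and the other 3 were within the non-stressed range, which gave 0.81 ± 0.45. Egr2 had the same 3 stressed libraries highest, at 174, 291 and 189 normalised reads, and was at 0.79 ± 0.40. Fosl2, a Fos family gene, was at 0.42 ± 0.26, while Homer1, a synaptic scaffold gene, at -0.68 ± 0.76 and Bdnf, a neurotrophin gene, at -0.45 ± 0.71 were at the lower end. The score differed by 0.32 from 12% up and by -0.076 under it, and the median was 0.37 without the 2 libraries low in bulb markers.

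Of the higher genes of smallest p, Kdr was on the list of endothelial markers, and Mcam, Cd93 and Nes, on none of the lists, are also known from vessels. Kdr, the main signalling receptor for vascular endothelial growth factor (chromosome 5, 75932827 to 75978458, minus strand), had the smallest p of all genes and lay from 441 to 866 normalised reads (median 627) in non-stressed libraries and from 838 to 1093 (median 987) in stressed ones. All stressed libraries but number 1 were above every non-stressed one, and the log2 fold change was 0.69 ± 0.16 (SE; limma, unadjusted p = 0.000325, adjusted p = 0.999901). Mcam, an adhesion molecule gene of endothelium and pericytes, lay from 523 to 870.0 normalised reads (median 669) in non-stressed libraries and from 801 to 974 (median 895) in stressed ones and was at 0.43 ± 0.14. Cd93, a lectin-like receptor gene of endothelium, lay from 262 to 484 normalised reads (median 341) in non-stressed libraries and from 387 to 553 (median 511) in stressed ones, with 4 stressed libraries above all others, and was at 0.48 ± 0.18. Nes, an intermediate filament gene of progenitors and some vascular cells, was at 0.46 ± 0.18. The endothelial list as a whole did not stand off, with 10 of 18 markers higher and a median of 0.12. Tek, the angiopoietin receptor gene, was at 0.30 ± 0.20, Cdh5, the endothelial cadherin gene, at 0.30 ± 0.20, Cldn5, the tight junction gene of the barrier, at 0.55 ± 0.39, and Pecam1, an adhesion molecule gene, at 0.19 ± 0.20. Some transporter genes of the blood-brain barrier were lower: Slc2a1, the glucose transporter gene, at -0.48 ± 0.25, Slco1a4 at -0.45 ± 0.71 and Abcb1a at -0.40 ± 0.47. None of these had an unadjusted p under 0.05, and Slco1a4 and Abcb1a were chosen after their values were seen. They do not stand for all transporters of the list. Without stressed library 3 the endothelial median was 0.011. Mural cell markers were higher in 10 of 12 with a median of 0.19, none with an unadjusted p under 0.05; Higd1b, a pericyte marker, was at 0.30 ± 0.16, and Des, the desmin gene, at 0.40 ± 0.34.

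Markers of the brain's coverings and of neighbouring tissue moved with some of these values. Meningeal fibroblast markers were higher in 17 of 21, with a median of 0.38 and 1, Gjb2, at an unadjusted p under 0.05, and their summed level lay from 8094 to 17160.0 normalised reads in non-stressed and from 9653 to 28015 in stressed libraries. Gjb2, the connexin 26 gene, lay from 230.4 to 448 normalised reads (median 362) in non-stressed libraries and from 314 to 711 (median 544) in stressed ones and was at 0.57 ± 0.23; Col3a1, a fibrillar collagen gene, was at 0.57 ± 0.28. Prg4, on none of the lists, which encodes the lubricating glycoprotein lubricin, was at 0.89 ± 0.32, and was highest in stressed library 3, as the meningeal score was. The meningeal score differed by 0.63 under 12% no-feature reads and by 0.064 from 12% up. Under 12%, the bulb score differed by 2.06, the neuroblast score by 1.01 and the choroid plexus score by 0.40 in the same direction, and non-stressed library 3, low in bulb markers, had a meningeal score of -0.45. Choroid plexus markers were higher in 6 of 8 with a median of 0.14, and their score was lowest, at -1.13 and -0.86, in stressed library 5 and non-stressed library 3, the pair low in bulb markers. The part of these cells in the vascular and fibroblast values was not tested.

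Interferon response genes were higher in 17 of 20, with a median of 0.30 and 2 at an unadjusted p under 0.05. Trim25, a ubiquitin ligase gene of antiviral signalling, lay from 313 to 447 normalised reads (median 399) in non-stressed libraries and from 425 to 644 (median 493) in stressed ones. Of the stressed libraries 5 were above all non-stressed ones, and the log2 fold change was 0.39 ± 0.17. Gbp2, an interferon-induced GTPase gene, was at 0.55 ± 0.24, with stressed library 2, at 312, the only one above the non-stressed maximum of 237. Stat2, a signal transducer of interferon receptors, was at 0.20 ± 0.12. The list score overlapped between groups, from -0.69 to 0.58 in non-stressed and from -0.34 to 0.73 in stressed libraries.

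The lists that hold Plin4 and Hif3a had members in both directions. Of 18 lipid droplet and fatty acid genes 9 were lower and 9 higher, with a median of -0.019, and Plin4 was the only member at an unadjusted p under 0.05. Plin2, another droplet coat gene, was at 0.37 ± 0.39 and Lipe, the hormone-sensitive lipase gene, at 0.27 ± 0.25. Of 17 hypoxia response genes 10 were lower and 7 higher, with a median of -0.079. Their score, in which Hif3a counts, differed by -0.14, by -0.13 from 12% no-feature reads up and by -0.15 under 12%. Members lay from -1.33 (Hif3a) to 0.27, so a mean over them can rest on few genes. Hif1a was at -0.71 ± 0.67 (-0.48 without the libraries under 12%) and Pgk1, a glycolysis gene, at 0.27 ± 0.21. Cortical excitatory neuron markers were lower in 15 of 19 (median -0.11, and 0.0061 without the libraries under 12%), and glutamate and GABA receptor genes in 20 of 30 (median -0.25, or 0.010 without stressed library 4). Within groups the receptor genes spread widely: their score lay from -1.09 to 0.63 in non-stressed and from -1.57 to 0.45 in stressed libraries, lowest in those of low no-feature share. Grin2b, an NMDA receptor subunit gene, was at -0.66 ± 0.48 and Grm5, a metabotropic glutamate receptor gene, at -1.04 ± 1.00. Without the libraries under 12% these were -0.64 and -0.60. Over the 25 further lists, the medians lay from -0.29 (markers of hippocampal neurons) to 0.21 (3 markers of blood), and 0 of their members reached an unadjusted p under 0.05.

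**Figure D4:**
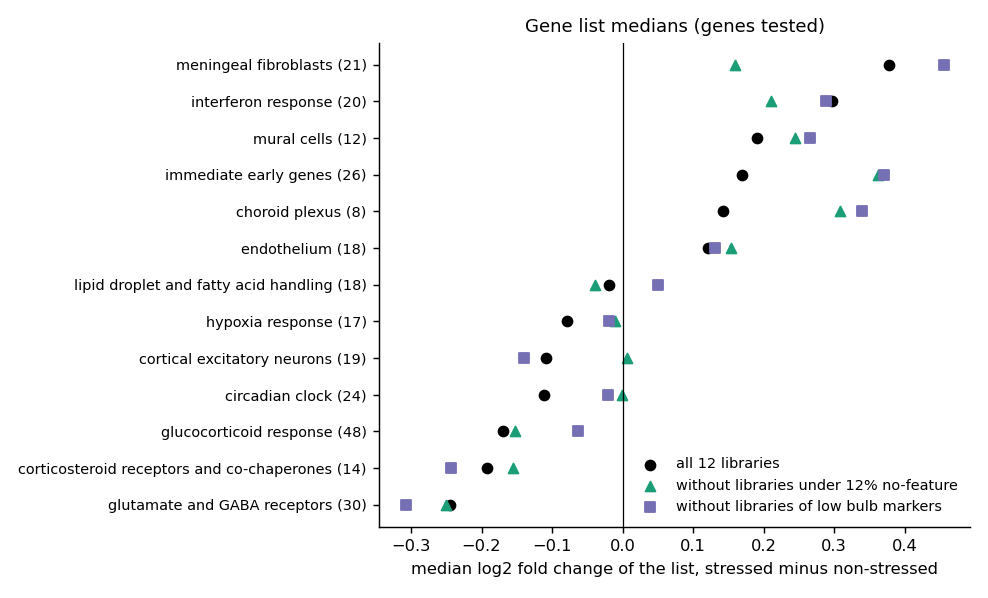
Median log2 fold change, stressed minus non-stressed (horizontal axis), of 13 gene lists, with the number of genes tested in brackets. Black circles use all 12 libraries, green triangles leave out those with a no-feature share under 12%, and purple squares leave out those low in olfactory bulb markers. The circadian clock and cortical neuron medians lie near 0 as triangles, and the immediate early gene median lies further from 0 in both subsets.

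The remaining genes of small p belong to none of the lists. Casq2, the cardiac form of a calcium store protein (chromosome 3, 102086415 to 102146514, plus strand), lay from 68.6 to 113 normalised reads (median 90.3) in non-stressed libraries and from 110.3 to 204 (median 150.3) in stressed ones. All stressed libraries but number 3 were above every non-stressed one, and the log2 fold change was 0.71 ± 0.18 (unadjusted p = 0.000657). Gucy2e, a membrane guanylate cyclase gene known from the retina (chromosome 11, 69218117 to 69237036, minus strand), lay from 128 to 147 normalised reads (median 141) in non-stressed libraries and from 165 to 209 (median 184) in stressed ones, without overlap, at 0.41 ± 0.13. Card6, a caspase recruitment domain gene, lay from 69.9 to 94.1 normalised reads (median 89.4) in non-stressed libraries and from 100.7 to 115 (median 107) in stressed ones, again without overlap, at 0.33 ± 0.13. Tcea3, a transcription elongation factor gene, was sparse, from 8.10 to 14.4 normalised reads (median 10.2) in non-stressed libraries and from 15.0 to 61.6 (median 29.0) in stressed ones, and was at 1.37 ± 0.38, with the lowest stressed value, in library 5, just above the highest non-stressed one. Aspg, an asparaginase gene, was at 0.77 ± 0.21, Plekhh1 at 0.43 ± 0.13 and Prr5l, which encodes a partner of the mTOR complex, at 0.39 ± 0.15. On the lower side, Xdh, the xanthine dehydrogenase gene of purine breakdown, was at -0.62 ± 0.23, Paqr5, a membrane progestin receptor gene, at -0.53 ± 0.20, Lrrc8c, a subunit gene of volume-regulated anion channels, at -0.46 ± 0.17 and Micalcl at -0.46 ± 0.18. Lao1, an L-amino acid oxidase gene chosen after its values were seen, lay from 3.32 to 37.5 normalised reads in non-stressed and from 0 to 6.96 in stressed libraries, too few for a precise ratio, at -2.02 ± 0.75. All 24 genes of smallest p (12 in each direction) had the same sign among the libraries from 12% no-feature reads up and among those under 12%, which their choice on these libraries favours.

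Whether esomeprazole altered the response was asked by setting the stress difference beside that in vehicle mice, which shares no library with it. The test of the difference between the 2 effects called 0 of 15040 genes (0%, smallest adjusted p = 0.999985; 109 at an unadjusted p under 0.05 by limma, 88 by edgeR and 143 by DESeq2, each with 0 called), and stress in vehicle mice alone also called 0 (0%; 973 at an unadjusted p under 0.05). Of the 24 genes of smallest p, 11 of the 12 higher and 11 of the 12 lower ones had the same sign in vehicle mice, where 65.1% of all higher and 71.7% of all lower genes did. Plin4 was at -1.56 ± 0.43 in vehicle mice, Galnt15 at -0.68 ± 0.21, Hif3a at -0.74 ± 0.36, Map3k6 at -0.76 ± 0.27, Tsc22d3 at -0.50 ± 0.19, Kdr at 0.48 ± 0.16, Mcam at 0.45 ± 0.14 and Cd93 at 0.53 ± 0.18 (log2, SE). The exceptions were Acer2 at 0.12 ± 0.20 (difference of effects, limma, unadjusted p = 0.0239) and Card6 at -0.059 ± 0.13 (unadjusted p = 0.0457). Egr1, at -0.11 ± 0.28, was not higher after stress in vehicle mice (limma, unadjusted p = 0.0612 for the difference). As lists, glucocorticoid response genes had a median of -0.10 in vehicle mice, clock genes -0.30, immediate early genes 0.16 and interferon response genes 0.43. The median over all genes tested was -0.020 in vehicle mice. Olfactory bulb markers, balanced in esomeprazole mice, had a median of 3.06 there, where 4 of the 6 non-stressed and 1 of the 6 stressed vehicle libraries were low in them. Without the libraries of both drug groups low in these markers, the difference between the effects had 12 genes at an unadjusted p under 0.05 and 0 called by limma.

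Set against the hippocampus of esomeprazole mice, the test of the difference between tissues called 0 of 14844 genes by limma (0%, smallest adjusted p = 0.99969; 226 at an unadjusted p under 0.05, and edgeR 0 called with 272). The labels do not say whether equal numbers mark the same mouse in both tissues. In hippocampus 43 of 48 glucocorticoid response genes were lower, with a median of -0.40 against -0.035 over all genes tested there. Plin4 was at -1.95 ± 0.43 there, Hif3a at -1.27 ± 0.46, Map3k6 at -0.99 ± 0.25, Tsc22d3 at -0.60 ± 0.17, Fkbp5 at -0.63 ± 0.19, Kdr at 0.59 ± 0.17 and Casq2 at 1.22 ± 0.26. All 12 lower genes of smallest p were lower in hippocampus too, against 67.3% of all lower genes, and 10 of the 12 higher ones were higher, against 52.1%. The exceptions were Gucy2e at -0.034 ± 0.16 and Card6 at -0.52 ± 0.22, with an unadjusted p of 0.0278 and 0.00122 for the difference between tissues and neither called. Immediate early genes as a list had a median of -0.11 in hippocampus, though Fos was at 1.02 ± 0.38 and Egr2 at 1.36 ± 0.47. Markers of striatal neurons, with a median of 2.17 in hippocampus and 0.030 in frontal cortex, moved with the hippocampal comparison, and 4 of the 6 stressed esomeprazole libraries of hippocampus were high in them. Without the hippocampal libraries high in these markers, which leaves 2 stressed ones, 9 genes had an unadjusted p under 0.05.

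**Figure D5:**
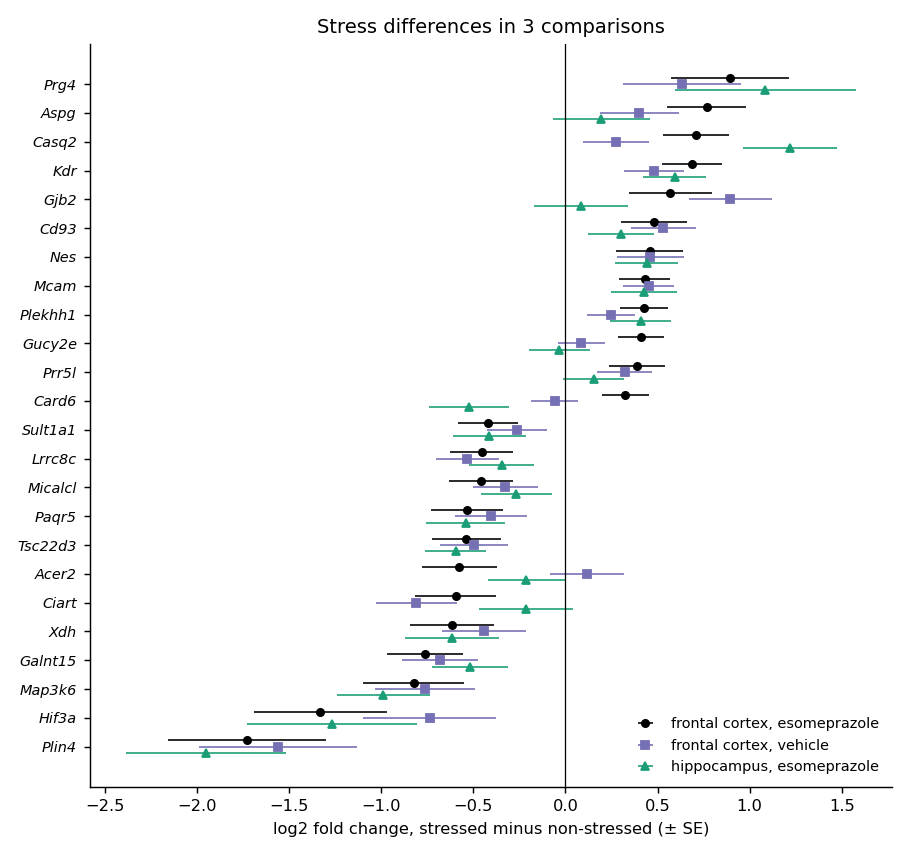
Log2 fold change, stressed minus non-stressed, with its standard error (horizontal axis) for the 24 genes of smallest p (vertical axis), in frontal cortex of esomeprazole mice (black circles), frontal cortex of vehicle mice (purple squares) and hippocampus of esomeprazole mice (green triangles). The genes were chosen on the black values. Against their standard errors, Plin4, Map3k6, Tsc22d3, Kdr, Mcam and Nes lie close together in all 3. Acer2, Gucy2e, Card6 and Casq2 are among those that do not, though Casq2 keeps its sign, at 0.71, 0.28 and 1.22.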

How the data were processed

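Poly(A) RNA of 12 frontal cortex libraries (6 stressed and 6 non-stressed esomeprazole mice) was compared, within a model of all 24 frontal cortex libraries; it was prepared with a stranded mRNA kit per the labels. The submitters' processing notes list STAR, HTSeq and DESeq2 and the build mm10 and give neither version nor role. The deposited value is a signal: the read count of a gene scaled by the authors with a single factor per library, since 100% of the deposited values lie within 0.02 of a whole number of reads. Each file listed 15263 genes, 24 of them with names turned into dates and 1 with a duplicated name. The first 4 entries (unmapped, multimapping, no-feature and ambiguous reads) were left out of library sizes and tests; their largest share, no-feature reads, was 7.75% to 19.5%, with a 95% Wilson interval of at most 0.012 points to each side that covers counting error only. Gene reads were 27.6 to 41.2 M per library.

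Whole reads were recovered and scaled by TMM (edgeR 4.0.16). The 15040 genes kept by filterByExpr (minimum count 10) entered limma 3.58.1 with a trend on log2(normalised reads + 1). The model had 1 mean per group, and genes were called at a Benjamini-Hochberg adjusted p under 0.05. The difference from the effect in vehicle mice used the same fit, and that from hippocampus all 48 libraries (14844 genes). The procedure was tested on simulated counts of independent libraries, without the differences in no-feature share and bulb markers seen here. That simulation therefore does not show how the test behaves on these libraries. Library measures were compared by two-sided exact permutation tests. Alternatives were edgeR quasi-likelihood, DESeq2 1.42.0, median-of-ratios and deposited scaling, no filter, a pseudocount of 5, the 12 libraries alone, the replicate number as a block, covariates (no-feature share, bulb marker score, 2 surrogate variables from sva 3.50.0) and libraries left out. R 4.3.3, Python 3.11.15, numpy 2.4.6, pandas 2.3.3, scipy 1.17.1 and matplotlib 3.10.9 were used. Positions are from GENCODE vM21 on mm10 and promoters from RefSeq on GRCm38.p6.

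The comparison, its 40 gene lists and the genes always named were chosen with earlier results of these data known, so lists are described by counts and medians, without a test. Named genes were the 12 of smallest p in each direction whose mean log2 CPM was 1 or more, the 4 smallest-p genes or fewer from each described list, and Plin4, Fkbp5, Sgk1, Tsc22d3, Per1, Map3k6, Galnt15, Hif3a, Ciart, Per2, Fos, Nr3c1 and Nr3c2. Further list members and genes given with values (such as Mertk, Pla2g3, Lcn2, Clock, Homer1, Cldn5, Slco1a4 and Lao1) were chosen after their values were seen. P-values measure the spread between these mice and whatever preparation added to it. No 2 libraries of a group agreed within sampling noise. Values of some single genes are not reported here.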

Additional observations from a re-analysis of the deposited data

Results flagged for a closer look

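Of 168 groups of 6 values tested with Dixon's criterion (named genes and list scores), 10 had 1 library far from the other 5, where chance gives about 1 in 20. In non-stressed library 4, Plin4 was at 141, against 444 to 799 in the other 5, and was thus within the range of the stressed group. Hif3a was at 207, against 298 to 354 in the other 5 in stressed library 2, lower still than its group. Micalcl in non-stressed library 1 was at 173, against 124 to 139 in the other 5.

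Non-stressed library 3, low in both no-feature share and olfactory bulb markers, stood apart for 3 measures. Its Egr1 was at 6903, against 2855 to 3735 in the other 5, and its Pgk1, a glycolysis gene, at 9275, against 4896 to 5648 in the other 5. Its bulb score was -2.20, against 0.55 to 1.51 in the other 5. In non-stressed library 2, of the lowest no-feature share, Plin2 was at 711, against 287 to 361 in the other 5, and the clock score was -0.28, against 0.052 to 0.19 in the other 5. Stressed library 5 was low in the bulb score, at -3.02, against 0.59 to 1.89 in the other 5, and in the choroid plexus score, at -1.13, against 0.13 to 0.78 in the other 5. The part of tissue or library differences in these values was not tested.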

How the results depend on the processing

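The count of called genes, 0, stayed at 0 under every alternative but DESeq2, which called 1 gene (Plin4, log2 fold change -1.87; 102 at an unadjusted p under 0.05), and 2 surrogate variables, with which limma called 4 (Map3k6 -0.92, Tsc22d3 -0.63, Slc2a1 -0.63 and Sdc4 -0.50; 1156 at an unadjusted p under 0.05); the cause was not tested. Leaving out each of the 12 libraries kept it at 0, with 55 to 162 genes at an unadjusted p under 0.05, and the 4 against 4 libraries from 12% no-feature reads up gave 883. With the replicate block the count was also 0, with 73 at an unadjusted p under 0.05 against 71. Equal numbers were not shown to pair the samples. Deviations of same-numbered libraries correlated at 0.890, -0.042, 0.66, -0.708, 0.721 and 0.626. The stressed library of highest correlation had the same number only for non-stressed libraries 1 and 3. The part of the no-feature share in these correlations was not tested. Tests of the difference from vehicle mice and from hippocampus called 0 genes under every alternative run, those with the replicate block included.

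The median of immediate early genes was 0.17, and 0.37 without the libraries low in bulb markers. Leaving out 1 library gave medians of -0.21 to -0.042 for glucocorticoid response genes (nearest 0 without non-stressed library 2), -0.17 to -0.022 for clock genes (nearest 0 without non-stressed library 3), 0.13 to 0.34 for immediate early genes (highest without non-stressed library 2), -0.015 to 0.12 for lipid droplet genes (highest without the same library), and -0.088 to 0.011 for hypoxia genes (highest without stressed library 4, 0.0061 without stressed library 5). Without stressed library 4 the medians of glutamate and GABA receptor genes and of corticosteroid receptors and co-chaperones were 0.010 and -0.021. Without stressed library 3 those of endothelial, mural and meningeal markers were 0.011, 0.074 and 0.19. The choroid plexus median was 0.057 without non-stressed library 5 and 0.50 without stressed library 5. Of 70 named genes, 68 kept one sign over 25 alternatives. Per1, near 0, was at -0.0038 and -0.011 with median-of-ratios and deposited scaling, -0.090 with the no-feature share and -0.18 with surrogate variables, and from -0.097 to 0.17 with 1 library left out. Nr3c2, also near 0, was at 0.0040 with the 12 libraries alone, 0.086 with the no-feature share, 0.13 with surrogate variables, and from -0.15 to 0.096 with 1 library left out.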

Other observations

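Of 23 genes of the V-ATPase, the pump that acidifies lysosomes, and of lysosomal enzymes, 16 were higher in stressed mice, with a median log2 fold change of 0.060. Their score difference, stressed minus non-stressed, was 0.11 from 12% no-feature reads up and -0.17 under 12%. Nuclear genes of oxidative phosphorylation were higher in 24 of 30, by a median of 0.075, with score differences of 0.11 from 12% no-feature reads up and -0.067 under 12%. Neuroblast markers were lower in 10 of 12, at a median of -0.075, or -0.73 without the libraries under 12%. Their score difference was -0.75 from 12% no-feature reads up and 1.01 under 12%, the same signs as for olfactory bulb markers. The score differences of all 3 lists thus had opposite signs in the 2 classes of libraries, and no member of these lists had an unadjusted p under 0.05. Over all genes 49.6% were lower and the median was 0.0020.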
